A study of Mus musculus with 4 samples.

Results

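The 10 genes of late male germ cell development that were examined in mouse testis were the regulators Crem, Tbpl1 and Papolb, and the spermatid genes Gsg1, Tcp11, Theg, Cst8, Hook1, Nme5 and Reep6. A probe set was taken where the platform annotation names exactly 1 gene and that gene is on this list. The rule found 8 probe sets of 7 of the 10 genes, out of 12422 probe sets and 8251 genes on the array. They were 2 probe sets of Crem and 1 each of Tbpl1, Papolb, Gsg1, Tcp11, Theg and Reep6. No single-gene probe set is annotated to Cst8, Hook1 or Nme5, which were not analysed here. The list was chosen by measured values, since the genes' signals and changes on these 4 arrays were known when it was drawn up. The genotype changes of the 7 genes are therefore descriptions, and the p-values printed with them are those of the fit over the whole array and no independent evidence.

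The 4 arrays held testis RNA of 16-week-old C57BL/6J males, 2 Tslc1-/- and 2 Tslc1+/+. Tslc1, now named Cadm1, encodes an immunoglobulin superfamily adhesion molecule, and no promoter, Cre or treatment is given in the labels. The 2 arrays of a genotype are not stated to come from separate animals, so p-values rest on a spread between arrays that may be technical.

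Round spermatids are the haploid cells that leave meiosis and are reshaped into sperm. The transcription factor CREM, in its activator form, binds cAMP response elements of many genes that are switched on in these cells, and spermatids of mice without it stop at the round stage. TBPL1, a relative of the TATA-binding protein, and PAPOLB, a testis poly(A) polymerase of the cytoplasm that lengthens mRNA tails, are likewise needed for spermatids to mature. GSG1, a membrane protein of the endoplasmic reticulum, is known to bind PAPOLB.

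The promoters of Gsg1 and Tcp11 are shown because both transcripts were lower in Tslc1-/- testis and because CREM acts through promoter elements. RefSeq windows of assembly GRCm38.p6, from 250 bases before to 50 bases after a transcript's start, were given for 4 of the 7 genes in 7 windows. Capitals mark the half-site TGACG, the looser element TGACNTCA (on the other strand TGANGTCA) and the GC box GGGCGG (on the other strand CCGCCC). Gsg1 lies on chromosome 6 and its upstream window is chr6:135254287-135254586, minus strand. Tcp11 lies on chromosome 17 and the window shown, of 1 of its 3 annotated starts, is chr17:28079715-28080014, minus strand.
Gsg1: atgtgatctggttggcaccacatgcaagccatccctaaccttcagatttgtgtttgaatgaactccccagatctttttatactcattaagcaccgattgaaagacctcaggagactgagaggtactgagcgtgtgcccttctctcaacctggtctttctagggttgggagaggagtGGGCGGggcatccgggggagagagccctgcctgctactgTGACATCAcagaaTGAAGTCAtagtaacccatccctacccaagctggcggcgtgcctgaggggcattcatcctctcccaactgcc
Tcp11: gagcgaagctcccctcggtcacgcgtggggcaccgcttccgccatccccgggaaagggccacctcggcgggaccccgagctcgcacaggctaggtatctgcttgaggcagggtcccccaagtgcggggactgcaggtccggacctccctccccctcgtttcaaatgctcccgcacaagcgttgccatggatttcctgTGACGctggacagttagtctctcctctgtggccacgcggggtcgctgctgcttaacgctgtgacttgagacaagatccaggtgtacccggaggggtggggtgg

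Gsg1 has 2 windows and Tcp11 has 3, and the one shown of each is the one with a CREM-type motif. The Gsg1 window shown held the looser element 35 and 22 bases before the start and a GC box 74 bases before it, and the other Gsg1 window held a GC box but no looser element. The Tcp11 window shown held the half-site 53 bases before the start, and the other 2 Tcp11 windows held none. The full element TGACGTCA was in 0 of the 7 windows, the half-site in 1, the looser element in 1 and the GC box in 5. Of all 32851 RefSeq windows of that length, 1.79% held the full element, 20.8% the half-site on either strand, 8.83% the looser element and 35.7% the GC box. The looser element was added after the Gsg1 sequence had been read, and it overlaps the full element where both occur. Neither Tbpl1 nor Papolb had an element of the 3 CREM-type motifs in its window.

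Values are MAS5 signals, the probe set intensity that Affymetrix software computes, on a linear scale after the authors set each array to a common target. Probes differ in how strongly they bind, so signals of different genes do not rank their transcripts. Changes are differences of mean log2(signal + 50), Tslc1-/- minus Tslc1+/+, tested by limma over 7975 probe sets with a mean signal of at least 200. The targeted gene was lower in the Tslc1-/- arrays, with 443.5 and 444.9 on its first Cadm1 probe set against 3960 and 3925.2 in Tslc1+/+. A second Cadm1 probe set read 775.9 and 604.5 in Tslc1-/- testis, against 3449.5 and 4027.9 in Tslc1+/+. Whether these probes lie in the deleted stretch is not known, as the labels do not describe it. Across probe sets the arrays correlated with r = 0.9408 within Tslc1-/-, 0.9381 within Tslc1+/+ and 0.9304 to 0.9413 between genotypes, so the genotypes did not stand apart as whole profiles.

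All 4 measured spermatid genes outside the regulators were lower in Tslc1-/- testis, to between 47.67% and 68.16% of the Tslc1+/+ mean, and each passed the test. None of the 3 regulators passed on its brightest probe set, with means between 85.34% and 97.97% of Tslc1+/+. Over all tested probe sets, 67 of 7975 (0.84%) were called lower. Calls were more frequent at high signal. Among the 324 probe sets with a mean signal of at least 10000, where Gsg1, Tcp11 and Reep6 lie, 11.4% were called lower. From 2000 to 10000, where Theg, Tbpl1 and Papolb lie, 1.37% of 1537 were called lower. From 200 to 600, where both Crem probe sets lie, 0.0923% of 3252 were.

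**Figure D1:**
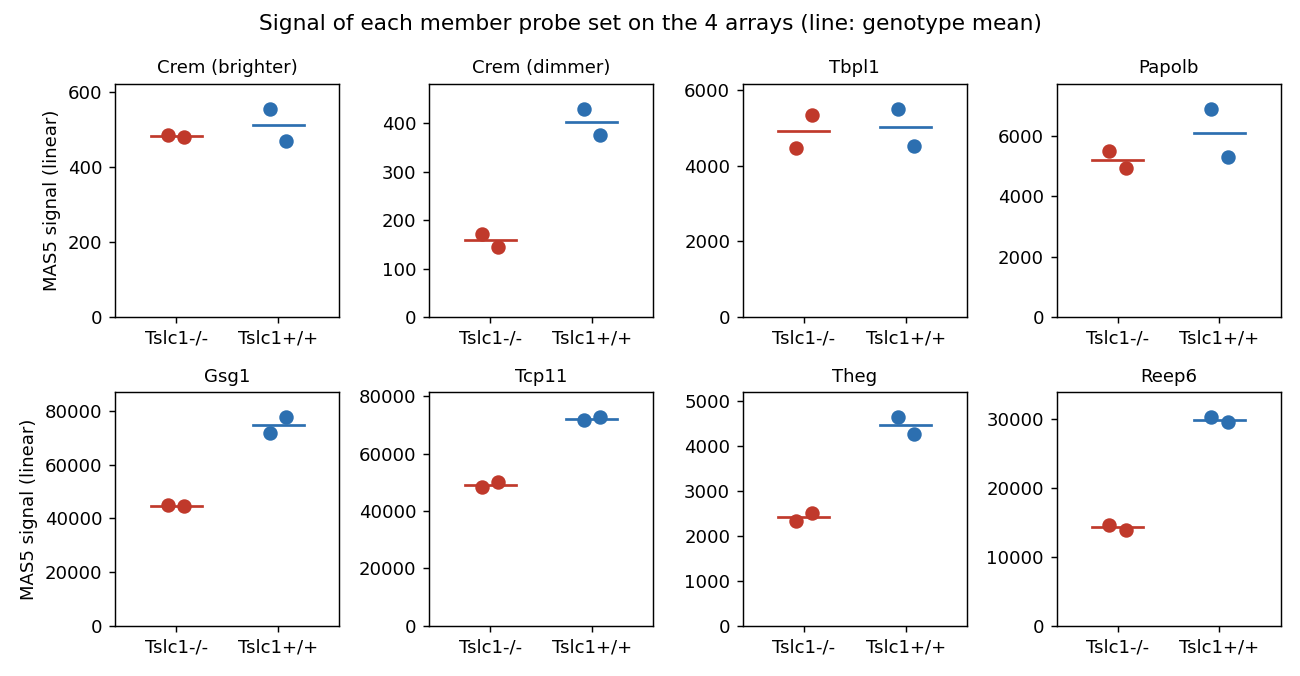
Signal of the 8 probe sets on the 4 arrays, 1 panel per probe set with its own linear axis from 0, points for arrays and lines for genotype means. The Tslc1-/- points lie below both Tslc1+/+ points for Gsg1, Tcp11, Theg, Reep6 and the dimmer Crem probe set, and overlap them for Tbpl1, Papolb and the brighter Crem probe set.

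Crem, on chromosome 18, was measured by 2 probe sets designed on the same transcript record. The brighter one read 483.4 and 479 in Tslc1-/- testis, against 554.9 and 469.3 in Tslc1+/+ testis. The genotypes overlapped, since 1 Tslc1+/+ array was the highest and the other the lowest of the 4. Its log2 change was -0.08 ± 0.31 (SE), with a 95% interval from -0.76 to 0.60 (limma, adjusted p = 0.965). The interval thus includes changes of either direction at this dim signal.

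The dimmer Crem probe set read 171.4 and 145.2 in Tslc1-/- testis, against 430.3 and 376.2 in Tslc1+/+ testis. Here both Tslc1-/- arrays were below both Tslc1+/+ arrays, which was also true of 16.1% of the probe sets between 200 and 600. The mean was 158.3 ± 18.5 in Tslc1-/- and 403.2 ± 38.2 in Tslc1+/+ (SD, n = 2), so the Tslc1-/- mean was 39.26% of the Tslc1+/+ mean. The log2 change was -1.12 ± 0.52 (SE), with a 95% interval from -2.27 to 0.03 (limma, unadjusted p = 0.0554, adjusted p = 0.517), so it did not pass. Of all tested probe sets, 114 had a more negative change than this one.

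Within an array, the dimmer Crem signal divided by the brighter one came to 0.355 and 0.303 in Tslc1-/- testis, against 0.776 and 0.802 in Tslc1+/+ testis. This ratio restates the difference of the dimmer probe set, which did not pass, and is no separate evidence. The mean of the dimmer probe set was above the minimum of 200 in Tslc1+/+ but not in Tslc1-/- testis, and no detection call stands behind its Tslc1-/- values. Crem is known to give activator and repressor forms from different promoters and by splicing. Which of these forms each probe set reads was not tested, because probe positions were not used here, and the names of both end in a suffix used for probes shared with other transcripts.

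Tbpl1, the TBP-like factor on chromosome 10, read 4481.9 and 5353 in Tslc1-/- against 5511.1 and 4527.3 in Tslc1+/+. The arrays of the genotypes interleaved. The log2 change was -0.03 ± 0.14 (SE), with a 95% interval from -0.34 to 0.28 (limma, adjusted p = 0.969).

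Papolb, on chromosome 5, read 5503.8 and 4931.9 in Tslc1-/- against 6911.7 and 5316.8 in Tslc1+/+. One Tslc1+/+ array lay above the other 3, and the genotypes overlapped. The log2 change was -0.22 ± 0.14 (SE), with a 95% interval from -0.53 to 0.10 (limma, adjusted p = 0.675). With 1 array left out, the sign turned for Tbpl1 (log2 change -0.17 to 0.11) and for the brighter Crem probe set (-0.19 to 0.03), while Papolb ranged from -0.40 to -0.03 and none of them passed.

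Reep6 had the largest fall of the 7 genes as measured by their brightest probe sets. It belongs to the REEP family, whose proteins shape the endoplasmic reticulum, and it is known for its role in rod photoreceptors. Its signals were 14544.5 and 13903.5 in Tslc1-/- against 30177.1 and 29493.9 in Tslc1+/+. Both arrays of each genotype lay close together and the genotypes were far apart. The means were 14224 ± 453 in Tslc1-/- and 29836 ± 483 in Tslc1+/+ (SD, n = 2), which is 2.098 times lower, and the log2 change was -1.07 ± 0.08 (SE), with a 95% interval from -1.25 to -0.89 (limma, adjusted p = 0.000135).

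Theg, a nuclear protein gene of haploid germ cells, read 2336.4 and 2498.9 in Tslc1-/- against 4627.7 and 4268.1 in Tslc1+/+. The genotypes did not overlap, and 22.1% of the probe sets from 2000 to 10000 likewise had both Tslc1-/- arrays below both Tslc1+/+ arrays. The log2 change was -0.87 ± 0.13 (SE), with a 95% interval from -1.16 to -0.57 (limma, adjusted p = 0.0107), and the fold decrease was 1.84. With any 1 of the 4 arrays left out Theg no longer passed (limma, adjusted p = 0.0705 to 0.113), although the change stayed between -0.92 and -0.81. Theg, Reep6 and Tbpl1 all lie on chromosome 10.

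Gsg1 read 45006.8 and 44413.2 in Tslc1-/- against 71652.8 and 77605.9 in Tslc1+/+, with no overlap. Its log2 change was -0.74 ± 0.07 (SE), with a 95% interval from -0.89 to -0.58 (limma, adjusted p = 0.000516). Its known binding partner Papolb had a change of -0.22, and the intervals of the 2 genes did not overlap. A test of the difference between the 2 changes was not run.

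Tcp11, a t-complex gene of germ cells whose protein acts in sperm motility, read 48346.6 and 50099.6 in Tslc1-/- against 71730.6 and 72699.8 in Tslc1+/+, again with no overlap. Its change was the smallest of the 4 called genes, at -0.55 ± 0.07 (SE), with a 95% interval from -0.70 to -0.40 (limma, adjusted p = 0.00231). The Tcp11 probe set carries a cross-hybridisation suffix, and the call ended without Tslc1+/+ replicate 2 (adjusted p = 0.0529) and when probe sets of any signal were tested (adjusted p = 0.066). In each of the 4 genes every Tslc1-/- array was below every Tslc1+/+ array, a pattern seen in 18.5% of all tested probe sets and in 41.4% of those with a mean signal of at least 10000. Reep6 and Gsg1 passed with each single array left out. No gene passed when the spread was not allowed to follow signal.

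**Figure D2:**
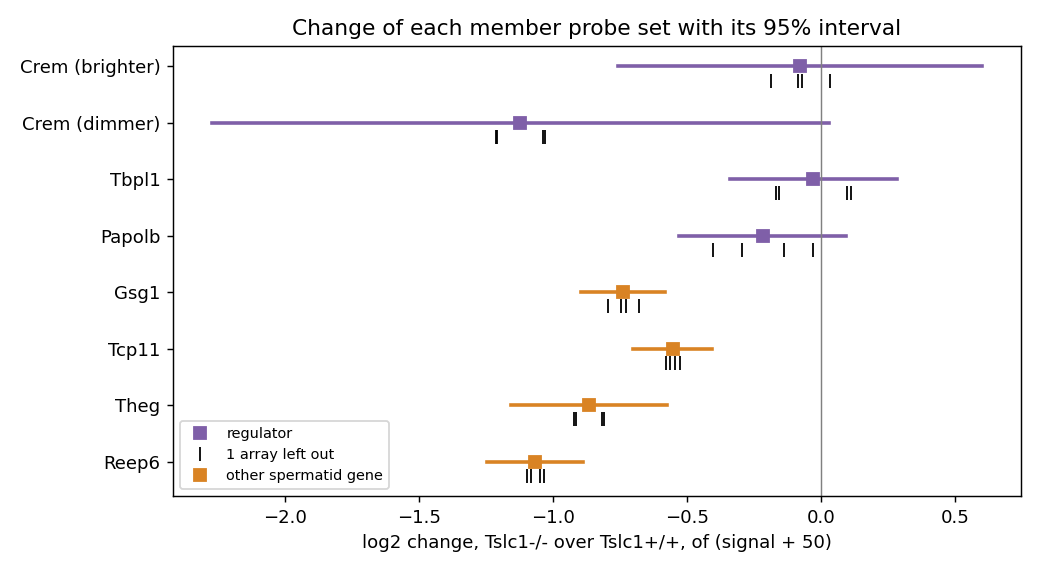
Log2 change (Tslc1-/- over Tslc1+/+ of signal + 50) of the 8 probe sets as squares with 95% intervals from limma, and ticks for the change with 1 array left out. The intervals of Gsg1, Tcp11, Theg and Reep6 end below -0.40, while those of the regulators include 0.

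The 4 called genes also varied among themselves. The ratio of a single Tslc1-/- array to a single Tslc1+/+ array ran from 0.461 to 0.493 for Reep6, from 0.505 to 0.586 for Theg, from 0.572 to 0.628 for Gsg1 and from 0.665 to 0.698 for Tcp11. The interval of Reep6 and that of Tcp11 did not overlap, and that of Theg overlapped those of the other 3 genes. The same ratio ran from 0.813 to 1.18 for Tbpl1, from 0.714 to 1.04 for Papolb and from 0.863 to 1.03 for the brighter Crem probe set. In RNA of whole testis, fewer cells of a type and less RNA per cell cannot be told apart.

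**Figure D3:**
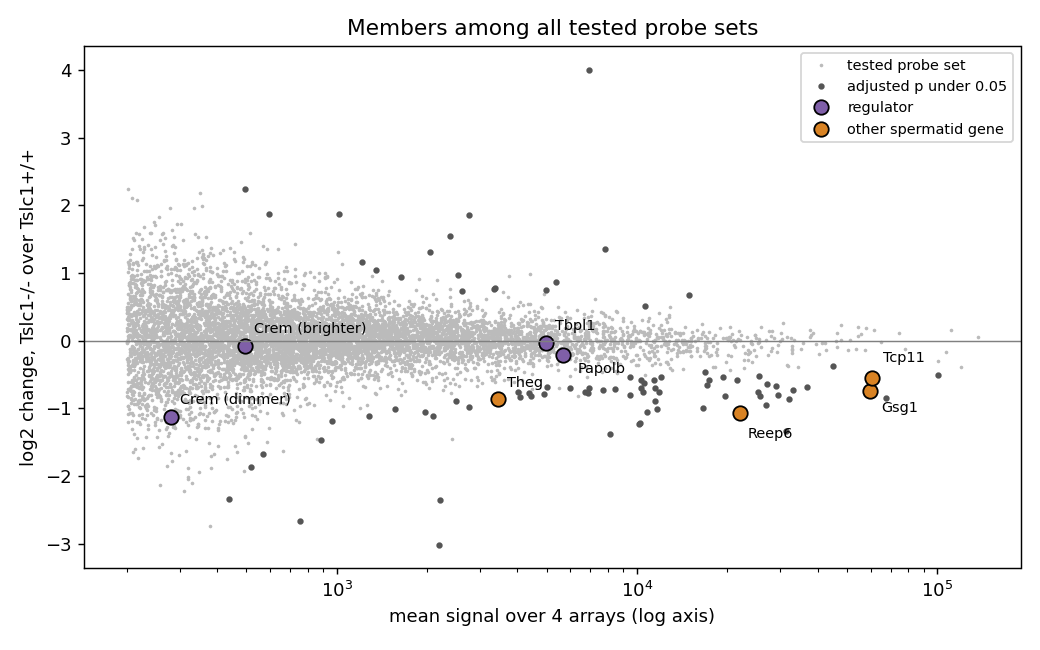
Log2 change against mean signal over the 4 arrays (log axis) for the 7975 tested probe sets, with those of adjusted p under 0.05 darker and the 8 probe sets of the 7 genes in colour. Scatter is widest at low signal, where both Crem probe sets lie, and Gsg1, Tcp11 and Reep6 lie in the bright range where called probe sets are mostly below 0.

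The scaling of whole arrays cancels when a spermatid gene is divided by a regulator on the same array. Gsg1 over Tbpl1 was 10.04 and 8.297 in Tslc1-/- against 13.0 and 17.14 in Tslc1+/+. Gsg1 over its partner Papolb was 8.177 and 9.005 in Tslc1-/- against 10.37 and 14.6 in Tslc1+/+. Reep6 over the brighter Crem probe set was 30.09 and 29.03 in Tslc1-/- against 54.38 and 62.85 in Tslc1+/+. In all 12 pairs of a spermatid gene with the brightest probe set of a regulator the Tslc1-/- ratios lay below the Tslc1+/+ ratios, with means between 48.73% (Reep6 over Tbpl1) and 78.76% (Tcp11 over Papolb) of the Tslc1+/+ mean. The 12 pairs share the same 4 arrays and 7 probe sets, so they are not separate observations. The 4 spermatid genes were chosen with their falls known, so the order of the ratios follows largely from that choice. How often other probe sets over the same regulators show this order was not worked out. The smallest two-sided p that an exact permutation test allows with 2 arrays per genotype is 0.333. Over the dimmer Crem probe set the order turned round in 4 of 4 genes. Reep6 over that probe set was 84.86 and 95.75 in Tslc1-/- against 70.13 and 78.4 in Tslc1+/+, and Gsg1 over it was 262.6 and 305.9 in Tslc1-/- against 166.5 and 206.3 in Tslc1+/+. The direction of the ratio to Crem thus differed between its 2 probe sets, neither of which passed.

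**Figure D4:**
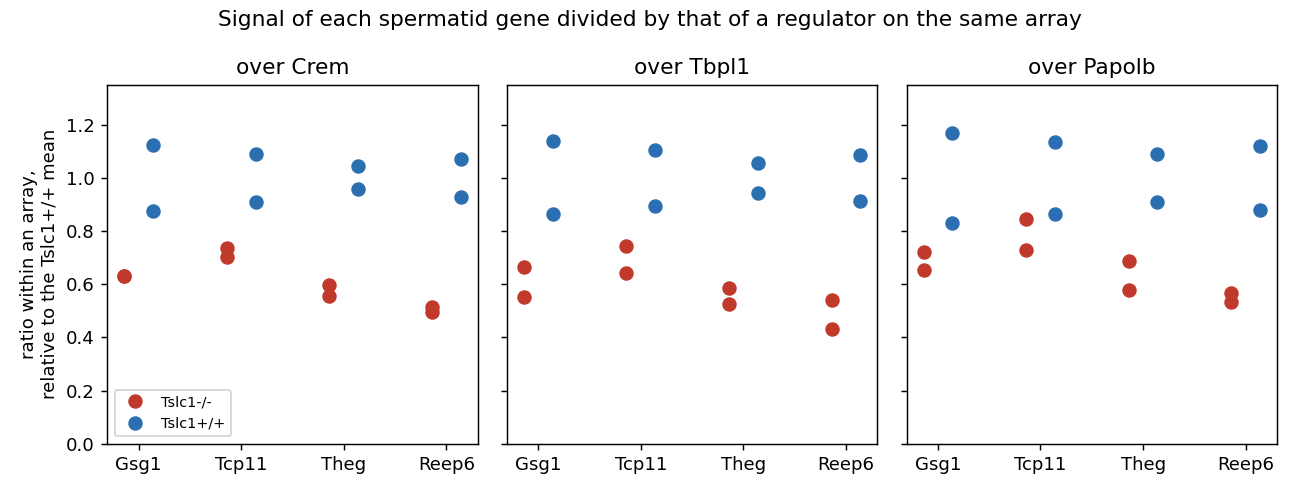
Signal of Gsg1, Tcp11, Theg and Reep6 divided by that of Crem (brighter probe set), Tbpl1 or Papolb on the same array, relative to the mean Tslc1+/+ ratio, with 1 point per array. The Tslc1-/- points lie below the Tslc1+/+ points in each of the 12 pairs, and the dimmer Crem probe set, over which the order is reversed, is not drawn. The genes were chosen with their signals on these arrays known.

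The 10 genes known as CREM targets were set beside the regulators, of which 9 were tested. The known targets Odf1, an outer dense fibre protein of the sperm tail, and Tnp1, a transition protein that replaces histones, fell, none rose and 7 did not pass. The share called lower was 0.84% of all tested probe sets and 11.4% of those with a mean signal of at least 10000, where both genes lie. Odf1 averaged 48184 in Tslc1-/- and 86981 in Tslc1+/+, a log2 change of -0.85 (limma, adjusted p = 0.0003). Tnp1 averaged 20766 in Tslc1-/- and 30030 in Tslc1+/+, a change of -0.53 (limma, adjusted p = 0.0156), and of the 4 fits that drop an array only the one lacking Tslc1+/+ replicate 1 called it (adjusted p = 0.0496 to 0.167). The Tnp1 probe set carries a cross-hybridisation suffix, and it did not pass when probe sets of any signal were tested (limma, adjusted p = 0.091). Tnp2, the brightest of this list, had a change of -0.39 (limma, adjusted p = 0.0654), the protamine gene Prm1 one of -0.13 (adjusted p = 0.568) and the testis lactate dehydrogenase Ldhc one of -0.02 (adjusted p = 0.970). The median of the list was -0.35, against 0.02 over all tested probe sets and -0.04 among those with a mean signal of at least 10000. Of the 9, 6 had both Tslc1-/- arrays below both Tslc1+/+ arrays, against 18.5% of all tested probe sets and 41.4% of those at 10000 or more. The median signal of the list was 34330.

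Among 9 tested genes of other round spermatid proteins, 1 fell and 8 did not pass, with a median of -0.27. Over all tested probe sets 0.84% were called lower, and 11.4% of those with a mean signal of at least 10000, where Tssk2 lies. In 5 of the 9 genes both Tslc1-/- arrays were below both Tslc1+/+ arrays. That pattern was seen in 18.5% of all tested probe sets and 41.4% of those at 10000 or more. The gene that fell was Tssk2, a spermatid kinase, with 15720 in Tslc1-/- and 22907 in Tslc1+/+, a change of -0.54 (limma, adjusted p = 0.0101) that was no longer called once any single array was dropped (adjusted p = 0.0676 to 0.124). Ropn1l, a sperm fibrous sheath protein gene and the brightest of this list, had 25775 in Tslc1-/- and 25354 in Tslc1+/+, a change of 0.02. Acr, the acrosomal protease, had a change of 0.15 (adjusted p = 0.673). Changes were negative in 7 of the 9 genes, among them Spam1 at -0.53 (limma, adjusted p = 0.21), which did not pass.

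Among factors that act beside the 3 regulators, none was called lower. Of 7 tested regulators of spermatid RNA, 1 rose and 6 did not pass, with a median of 0.15, while 0.238% of all tested probe sets were called higher. Ybx3, a Y-box protein that binds DNA and stored mRNA, read 16036.5 and 20870.6 in Tslc1-/- against 11094.2 and 11768.8 in Tslc1+/+. Its log2 change was 0.68 ± 0.12 (SE) (limma, adjusted p = 0.0263), but of the 4 fits that drop an array only the one lacking Tslc1-/- replicate 1 called it (adjusted p = 0.0182 to 0.19), and it did not pass when probe sets of any signal were tested (adjusted p = 0.099). Ybx2, the germ cell Y-box protein and the brightest of the list, had a change of -0.13 (adjusted p = 0.664), and Ddx25, a helicase of the spermatid's stored RNA, one of 0.04.

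None of 11 tested genes of basal transcription passed, with a median of 0.10. They include Tbp, the relative of Tbpl1, at 0.06 (limma, adjusted p = 0.932), and Rfx2, a factor active in spermatids, at -0.05 with 9535 in Tslc1-/- and 9861 in Tslc1+/+. Gtf2h1, a TFIIH subunit, had the smallest p of this list at a change of 0.29 (adjusted p = 0.536). None of 13 polyadenylation genes passed either, with a median of 0.12. Papola, the poly(A) polymerase of most tissues and relative of Papolb, was at 0.14 (adjusted p = 0.919) and the poly(A)-binding protein gene Pabpc1, the brightest and the one with the smallest p, at 0.15 (adjusted p = 0.487).

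Of the CREM family and its partners 3 genes were tested and none passed. Atf2, a relative of CREM that binds similar elements, was at 0.42 (limma, adjusted p = 0.522), Prkaca, a catalytic subunit of protein kinase A, at -0.15 and Creb1, the closest relative tested, at -0.07. None of 9 relatives of the spermatid genes passed. The REEP family member Reep1 was at -0.20 (limma, adjusted p = 0.652) and Reep5 at 0.16 (adjusted p = 0.821), against -1.07 for Reep6. Nme6, a nucleoside diphosphate kinase family member, had the smallest p of the relatives, at -0.44 (adjusted p = 0.427), and the cystatin Cst3, the brightest, was at 0.11.

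**Figure D5:**
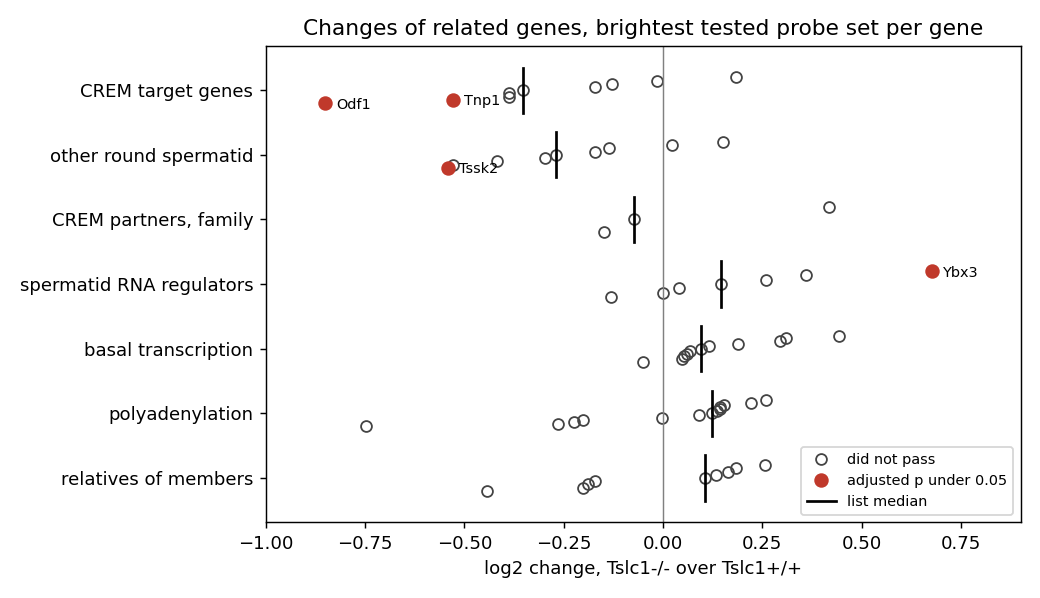
Log2 change of each tested gene, by its brightest probe set, in 7 lists related to the 7 genes, with filled points for adjusted p under 0.05 and a bar for the list median. The CREM target list has its median at -0.35 and the RNA regulator, basal transcription and polyadenylation lists have theirs at 0.15, 0.10 and 0.12.

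Markers of other cells of the testis were read beside the 4 called genes. Of 14 elongating spermatid genes 6 fell and 8 did not pass, against 0.84% called lower of all tested probe sets and 11.4% of those at 10000 or more. Changes were negative in 11 of the 14 genes. Among those that did not pass, Tnp2, the brightest, was at -0.39, Prm1 at -0.13, Actl7b at 0.05 and Haspin at 0.13. The median signal of the list was 28370. Its summed signals were 455090 to 481320 in Tslc1-/- and 650510 to 661000 in Tslc1+/+. It shares 6 of its tested genes with the CREM target list, so Odf1, Tnp1 and the dim Prm2 probe set count in both. Oaz3, a testis antizyme gene, had the smallest p, with 17734.8 in Tslc1-/- and 44962.1 in Tslc1+/+, a change of -1.34 (limma, adjusted p = 2.31e-05). Akap4, a protein of the sperm fibrous sheath, changed by -0.90 and the protamine family gene Prm3 by -0.76. Oaz3, Akap4, Prm3 and Odf1 passed with each single array left out. Gapdhs, the sperm glycolytic enzyme, changed by -0.51 (limma, adjusted p = 0.00495) on a probe set with a suffix, and it passed in 2 of the 4 fits that drop an array (adjusted p = 0.0182 to 0.107), but neither under quantile normalization nor when probe sets of any signal were tested (adjusted p up to 0.159).

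Of 7 spermatocyte genes 1 fell, the germ cell kinase Pgk2 at -0.78 (limma, adjusted p = 0.00495), which passed in 1 of the 4 fits that drop an array (adjusted p = 0.0481 to 0.0774). The share called lower was 0.84% of all tested probe sets and 1.37% of those from 2000 to 10000, where Pgk2 lies. The median of the 7 genes was 0.10, and only 2 of their changes were negative. The brightest of that list, the chaperone Hspa2, was at 0.12 (adjusted p = 0.730). The spermatocyte sums were 26667 to 28145 in Tslc1-/- and 29135 to 29840 in Tslc1+/+. Of these, Pgk2 alone made up 5069 in Tslc1-/- and 8711 in Tslc1+/+ on average. Actg2, an actin of smooth muscle, was the 1 of 9 peritubular myoid genes that fell, at -0.57 (limma, adjusted p = 0.0192), on a probe set with a cross-hybridisation suffix. Actg2 passed in 0 of the 4 fits that drop an array (adjusted p = 0.0907 to 0.183) and not when probe sets of any signal were tested (adjusted p = 0.0525). Its mean signal was 10297, and 11.4% of the probe sets at 10000 or more were called lower. The myoid sums were 15429 to 15960 in Tslc1-/- and 19278 to 20838 in Tslc1+/+. Actg2 alone averaged 8258 in Tslc1-/- and 12337 in Tslc1+/+ and weighs most in these sums. Changes were negative in 7 of the 9 myoid genes, with Tagln at -0.01, while Acta2 was at 0.14 and Mylk at 0.09.

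None of 6 spermatogonial, 13 Sertoli, 9 Leydig, 4 endothelial or 6 macrophage genes passed, but several of their sums differed without overlap. The spermatogonial sums were 8950.8 to 9015.9 in Tslc1-/- and 9545.3 to 10418 in Tslc1+/+, and the germ cell RNA-binding gene Dazl, brightest and of smallest p there, was at -0.36 (limma, adjusted p = 0.244). Changes were negative in 2 of the 6 spermatogonial genes, and the dim Stra8 was at 1.53 (limma, adjusted p = 0.407). The Leydig sums were 17827 to 19225 in Tslc1-/- and 19856 to 20170 in Tslc1+/+, with the steroid enzyme Cyp17a1 at -0.58 (limma, adjusted p = 0.127) and the brightest, Nr5a1, at -0.05. Changes were negative in 4 of the 9 Leydig genes, and the dim Hsd3b6 was at 1.07 (limma, adjusted p = 0.1735) on a probe set with a suffix. The endothelial sums were 1825.2 to 1892.9 in Tslc1-/- and 2445.3 to 2760.9 in Tslc1+/+, with the adhesion molecule Pecam1 at -1.92 (limma, adjusted p = 0.0694) and the brightest, Eng, at 0.11. These 3 lists, the spermatocyte list and the myoid list thus had lower sums in Tslc1-/-. Sums lay the other way, also without overlap, for spermatid RNA regulators, at 87801 to 92772 in Tslc1-/- and 83075 to 84326 in Tslc1+/+. They did so for basal transcription (43388 to 44923 against 40870 to 42147) and polyadenylation (110110 to 114720 against 105260 to 106650). How often sums separate with 2 arrays per genotype was not worked out. A sum follows its brightest genes, and the median changes of the lists with lower sums did not all point to a fall. They were 0.15 for spermatogonial, 0.10 for spermatocyte and 0.01 for Leydig genes. For myoid and endothelial genes they were -0.31 and -0.51. Dazl averaged 4537 in Tslc1-/- and 5823 in Tslc1+/+, and Cyp17a1 averaged 3325 in Tslc1-/- and 4951 in Tslc1+/+. The Sertoli sums overlapped, at 37093 to 37524 in Tslc1-/- and 36743 to 38642 in Tslc1+/+, with Rhox5 at 0.51 (limma, adjusted p = 0.522) and the brightest, Clu, at -0.03. The macrophage sums overlapped too, at 3564 to 4022.5 in Tslc1-/- and 3365.9 to 3898.4 in Tslc1+/+, with Laptm5 at 0.90 (limma, adjusted p = 0.395) and the brightest, Cd74, at 0.33. The part of cell composition in the fall of Gsg1, Tcp11, Theg and Reep6 was not tested.

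For Crem and Gsg1, the transcripts with the most similar values were sought among probe sets within 2-fold of their mean signal, by Euclidean distance of the 4 centred log2 values. Around Gsg1, 40 probe sets were candidates and the nearest genes were Odf1 at a distance of 0.122, Znrf4 at 0.169 and Csnk1g2 at 0.171. Znrf4, a ring finger protein gene, read 23268.5 and 26493.6 in Tslc1-/- against 41281.6 and 41098.3 in Tslc1+/+. Csnk1g2, a casein kinase gene, read 28975.3 and 27622.8 in Tslc1-/- against 47268.5 and 43811.1 in Tslc1+/+. Around the brighter Crem probe set, 3549 probe sets were candidates, and the nearest were Serpina5 (0.0435), Sfxn2 (0.0496) and Krt10 (0.05). With 4 arrays and that many candidates, near matches of a flat profile are frequent, and the distances are a description.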

How the data were processed

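Testis RNA of Tslc1-/- and Tslc1+/+ mice was measured on 4 Affymetrix Mouse Genome U74 arrays (set A, version 2), 2 per genotype. The deposited values are intensity per probe set on a linear scale. Per the labels, they are MAS5 signals that the authors brought to a global target of 1000 on each array, and the submitters' processing notes name MAS5 too. That scaling hides a change in total RNA. Detection calls were not used here. The number of arrays limits the precision.

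Gene names come from the platform annotation, linked through Entrez identifiers to RefSeq (10817 of 10833 single-gene probe sets matched). Of 12488 probe sets, 66 controls were left out. Signals were used as log2(signal + 50) over 7975 probe sets of mean signal at least 200, with limma 3.58.1 in R 4.3.3 (intensity trend, two-sided, Benjamini-Hochberg over all tested, threshold 0.05). The fit was tested on data simulated with its own estimate of the spread. Over tested probe sets of all signals together, it recovered 5% of log2 changes of 0.5 and 31.8% of those of 1. These pooled rates are not those of bright or of dim probe sets alone. A gene that did not pass may therefore still have changed. The 10 genes, the lists and the tests were chosen with earlier results of these data known. A gene stands by its brightest tested probe set. Named are all 7 measured genes with every probe set and, per list, called genes, the smallest p and the brightest; other named genes were chosen after their values were seen. Alternatives covered normalization, pseudocount, filter, trend, replicate block, suffix and each array left out.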

Additional observations from a re-analysis of the deposited data

How the results depend on the processing

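Of the 8 probe sets, 4 were called, and 4 were called under 6 of the alternatives: quantile normalization, equal array medians, pseudocounts of 16 and 100, a minimum mean signal of 500, and the replicate block. Over probe sets without a cross-hybridisation suffix, 3 of 5 were called, since Tcp11 and Crem were not among them. Without the intensity trend, limma called 0 of 7975 probe sets and 0 of the 8, with 638 and 5 at an unadjusted p under 0.05. With 1 array left out, 37 to 43 probe sets were called in all, and 2 to 3 of the 8; without Tslc1+/+ replicate 2 only Gsg1 and Reep6 were left. The brighter Crem probe set then ranged from -0.188 to 0.0327 and Tbpl1 from -0.17 to 0.11. Both were above 0 without Tslc1+/+ replicate 1, and Tbpl1 also without Tslc1-/- replicate 1. The number of arrays was lower there, and the cause was not tested further. With no filter on low signal, 58 of 12422 passed, against 86 in 7975. In a pairing check, same-numbered arrays did not deviate together from their genotype means (r = -0.00119 over 7975 probe sets). A separate fit with the replicate number as a block called 239 probe sets. Precision differed with signal, and both Crem probe sets are dim: the median standard error of a log2 change was 0.477 from a signal of 200 to 600 and 0.0905 from 10000.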
